A study of Mus musculus with 72 samples.

Results

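The 8 libraries described here are pancreatic islets of BALB/cJ mice at day 33 of a feeding study, 4 from mice on a high-fat diet (HFD) and 4 from mice on regular chow (RC), out of 69 libraries with deposited values. They were chosen by their labels for strain, day and diet, and all 14604 genes of the table were followed. The mice were males labelled 8 weeks old. Their islets were hand-picked after Liberase digestion of the pancreas and kept overnight in culture, so RNA was taken after hours away from the animal. Each library holds the RNA of a batch of islets from 1 mouse. The same study fed C57BL/6J and DBA/2J mice the same diets and sampled BALB/cJ islets also at days 5 and 13, and those groups are used below only to set the day 33 diet effect beside others. Deposited values are log2 CPM, reads of a gene scaled to a common library total on a log scale, so a difference of 1 is a doubling.

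An islet is a small endocrine organ made mostly of insulin-secreting beta cells, with glucagon-secreting alpha cells, somatostatin-secreting delta cells and pancreatic polypeptide cells, and with vessels, nerves, stellate cells and macrophages among them. A diet rich in fat raises the supply of fatty acids and, in many mouse strains, the demand for insulin. Islets are known to answer with changes in fuel use, in the load on the endoplasmic reticulum (ER) and in beta-cell division. In a sample of whole islets, fewer cells of a type and less RNA per cell cannot be told apart.

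The libraries carried the islet hormones at high level. Ins2 lay between 16.77 and 17.32 log2 CPM in HFD islets and between 16.88 and 17.35 in RC islets, and Ins1 and Ins2 together took 16.5% to 21.5% of the reads in HFD libraries and 17.7% to 22.6% in RC libraries. Reads in the deposited genes numbered 12292621 to 25745673 in the HFD libraries and 16625354 to 34591079 in the RC libraries. HFD replicate 2 and RC replicate 3 were the shallowest.

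No gene passed the test between HFD and RC islets at day 33. Of 14604 genes, 0 had a Benjamini-Hochberg adjusted p below 0.05 in the limma fit (0%), and the lowest adjusted p was 0.462. At an unadjusted p below 0.05 there were 669 genes (4.58%). All 4 HFD libraries lay above all 4 RC libraries for 335 genes (2.29%) and below them for 252 genes (1.73%), 587 in either direction (4.02%), and 7388 genes had the lower mean in HFD islets (50.6%). The limma-voom fit to the recovered reads also gave 0 genes, with 646 at an unadjusted p below 0.05. With library quality weights 9 genes passed, among them Lrsam1, Atp8a1, Prkcb, Gucy2c and Rbpms, which are described below. Leaving out HFD replicate 3 let 2 genes pass, Chd7 and Xlr3a, and leaving out HFD replicate 4 let 1 pass, Cog2.

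The fit was precise enough to bound most differences. The median 95% interval of a gene's log2 change reached 0.254 to either side of its estimate. For 13631 genes (93.3%) the whole interval lay within a 2-fold change, and for 11135 genes (76.2%) within a 1.5-fold change. Only 47 genes had an estimated log2 change beyond 1 in either direction. Where a gene is described below as higher or lower, this states the means of 4 mice against 4; none of these genes passed the test across all genes.

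The same fit gave few calls elsewhere. In BALB/cJ islets at day 5, 46 genes passed (0.315%), 20 higher and 26 lower in HFD islets, and at day 13 only 1 gene passed (0.00685%). The other 2 strains had 7 libraries each at day 33. There, 0 genes passed in C57BL/6J islets (0%, lowest adjusted p 0.0695, with 2180 genes at an unadjusted p below 0.05) and 3 in DBA/2J islets (0.0205%). The limma fit found 0 genes whose diet effect differed between day 33 and day 5 (0%), between day 33 and day 13 (0%), between BALB/cJ and C57BL/6J (0%) or between BALB/cJ and DBA/2J at day 33 (0%). At an unadjusted p below 0.05 these differences held 706, 1601, 2012 and 351 genes in that order. The C57BL/6J difference depended on the weighting of libraries: with library quality weights 3285 genes passed in it, 1858 with the higher effect in BALB/cJ and 1427 with the lower.

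The genes nearest to the threshold with a higher HFD mean included a brake on glucose oxidation and several signalling genes. Pdk4, a kinase that inhibits pyruvate dehydrogenase and so spares glucose when fat is burned, measured 6.37, 5.54, 5.64 and 5.39 log2 CPM in HFD islets, against 5.00, 4.59, 5.11 and 4.58 in RC islets. Every HFD mouse lay above every RC mouse, and the mean log2 difference was 0.91 ± 0.25 (SE, 95% interval 0.41 to 1.42, adjusted p = 0.519 by limma). Pdk4 lies at chr6:5483351-5496309 (GRCm38, GENCODE annotation). At day 5 the same gene differed by 0.35 and at day 13 by 0.43 in BALB/cJ islets.

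Adcy1, an adenylyl cyclase that makes cyclic AMP, measured 3.68, 3.48, 3.78 and 3.18 log2 CPM in HFD islets and 2.83, 2.54, 3.23 and 1.80 in RC islets, a log2 difference of 0.93 ± 0.26 (SE). The groups overlapped only in that 1 HFD mouse, at 3.18, lay under 1 RC mouse, at 3.23. Its HFD mean was also higher at day 5, by 0.86, and in C57BL/6J and DBA/2J islets at day 33, by 0.69 and 0.75. The 19 measured genes of incretin receptors and cyclic AMP, which hold Adcy1, had a median log2 difference of 0.05, with 14 higher and 5 lower HFD means and no gene that separated the groups.

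Prkcb, a protein kinase C that answers to calcium and diacylglycerol, measured 6.60, 6.66, 6.73 and 6.66 log2 CPM in HFD islets and 6.40, 6.28, 6.33 and 6.36 in RC islets, with no overlap and little spread in either group. Dgkb, a diacylglycerol kinase, lay at 2.46, 2.37, 2.15 and 2.34 in HFD islets and at 1.93, 1.84, 1.24 and 1.89 in RC islets. Rcan3, a regulator of calcineurin, differed by only 0.23 ± 0.06 (SE), at 8.18, 8.30, 8.21 and 8.32 log2 CPM in HFD islets against 8.04, 8.04, 8.07 and 7.96 in RC islets. All 3 genes separated the diets in all 8 mice.

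Chromatin and transport genes stood in the same part of the ranking. Chd7, a chromatin remodeller, measured 6.38, 6.50, 5.90 and 6.30 log2 CPM in HFD islets and 5.88, 5.69, 5.72 and 6.14 in RC islets. Without HFD replicate 3, the lowest HFD mouse, its log2 difference was 0.53 in place of 0.41 and it passed the test. Xlr3a measured 4.96, 4.21, 2.92 and 4.17 in HFD islets and 2.03, 3.10, 2.70 and 3.26 in RC islets, and HFD replicate 3 was again the mouse inside the RC range. Atp8a1, a flippase that moves phospholipids across membranes, lay at 6.67, 6.72, 6.42 and 6.79 log2 CPM in HFD islets and at 5.90, 6.12, 6.48 and 6.00 in RC islets. Mylip, a ubiquitin ligase induced by sterols, averaged 3.98 ± 0.15 log2 CPM in HFD islets and 3.51 ± 0.23 in RC islets (SD, n = 4 each), without overlap. The rest of the 12 genes named on this side were Rbpms, Dip2b and Maml2, with log2 differences of 0.28, 0.39 and 0.41.

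On the other side, Klf15, a transcription factor of amino acid and lipid metabolism, measured 2.85, 2.69, 2.74 and 2.73 log2 CPM in HFD islets, against 3.46, 3.26, 3.21 and 3.70 in RC islets. The HFD mice lay close together and all below the RC mice, with a log2 difference of -0.65 ± 0.18 (SE). Lrsam1, a ubiquitin ligase, measured 4.38, 4.36, 4.39 and 4.30 in HFD islets and 4.74, 4.69, 4.63 and 4.60 in RC islets. Gucy2c, the guanylyl cyclase that serves as guanylin receptor in the gut, averaged 6.01 ± 0.46 log2 CPM in HFD islets and 6.79 ± 0.55 in RC islets (SD, n = 4 each), and the groups overlapped. Cog2, a Golgi tethering subunit, measured 5.24, 4.38, 4.73 and 5.42 log2 CPM in HFD islets, against 5.32, 5.38, 5.22 and 5.46 in RC islets, so 2 HFD mice lay within the RC range and 2 below it. Without the HFD mouse of 5.42 its log2 difference was -0.56 in place of -0.40, and it passed. That call uses the spread over all libraries, which gave the -0.40 an SE of 0.11. The 4 HFD mice spread more widely, with an SD of 0.48 beside 0.1 in RC islets. The remaining genes on this side were Zfp235, Fam222b, Asb11, Rnf113a2, Prkd1, Zfp14 and F13a1, with log2 differences between -1.04 and -0.23. F13a1 is taken up below with macrophage genes.

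**Figure D1:**
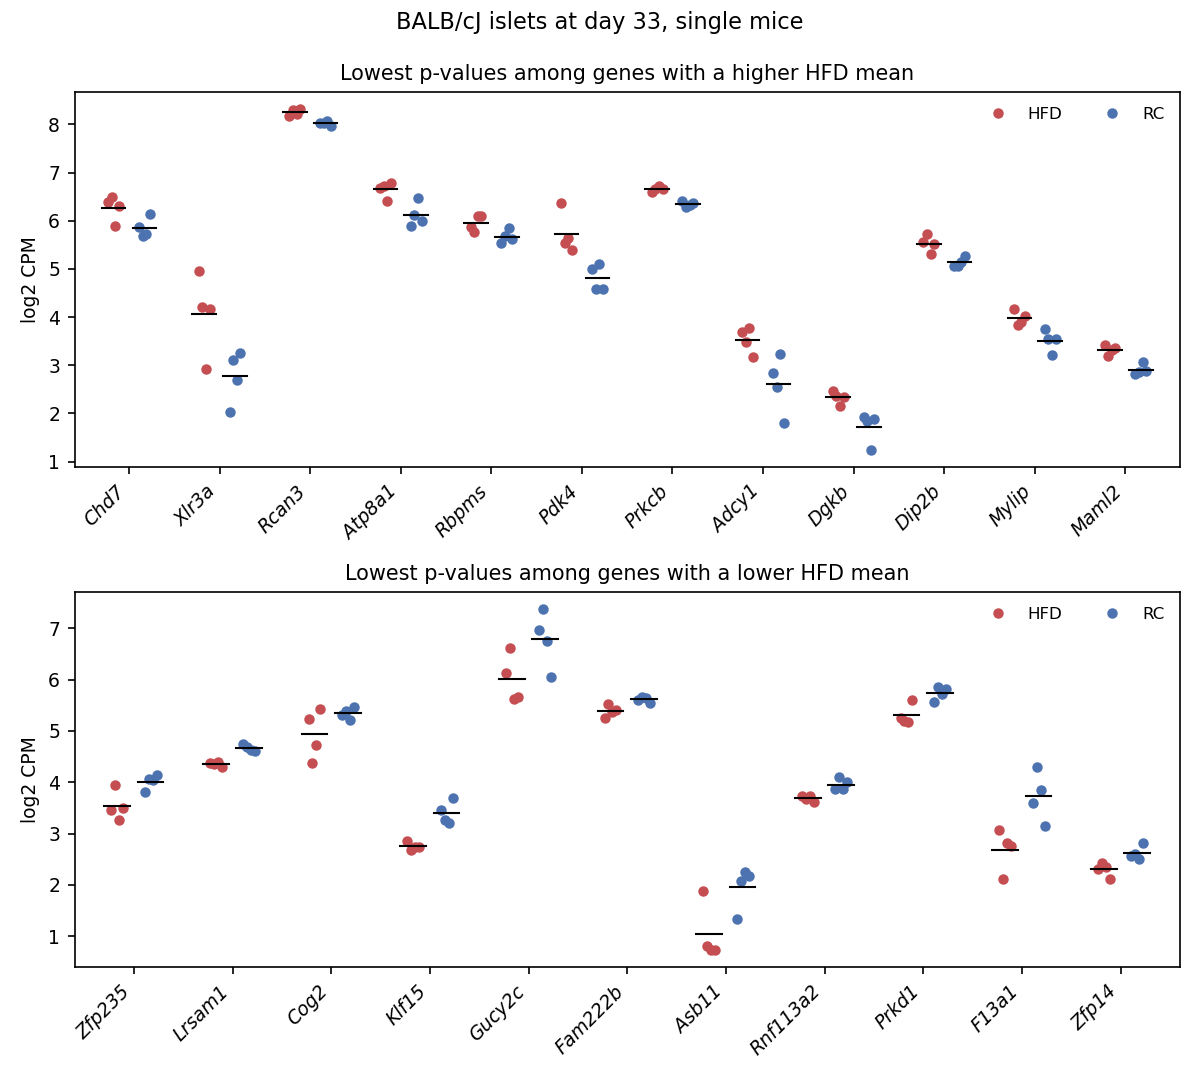
Expression of the named genes with the lowest p-values in each direction in single BALB/cJ mice at day 33, in log2 CPM, with HFD (left) and RC (right) for each gene; points are mice and black bars are group means. Pdk4, Prkcb, Rcan3, Klf15 and Lrsam1 separate the diets in all 8 mice, while Cog2 and Xlr3a have HFD mice inside the RC range, and no gene passed the test.

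The hormones and the genes that define the endocrine cells differed little. Ins1 measured 15.77, 15.60, 16.14 and 15.93 log2 CPM in HFD islets and 16.15, 16.21, 15.77 and 16.04 in RC islets, a log2 difference of -0.18 ± 0.18 (SE). Ins2 differed by -0.15 ± 0.21 and Iapp, amylin, by -0.07 ± 0.10, with overlapping groups. Of 30 measured genes of beta-cell identity and function, 18 had the higher HFD mean and 12 the lower, with a median log2 difference of 0.04 beside -0.0018 over all genes. Without HFD replicate 3 that median was -0.02. Slc2a2, the glucose transporter of mouse beta cells, differed by 0.21 ± 0.14, Glp1r, the incretin receptor, by 0.21 ± 0.12, Mafa by 0.32 ± 0.26, Ucn3 by -0.16 ± 0.11, and Pdx1 and Nkx6-1 by 0.02 ± 0.09 and 0.05 ± 0.10. Of the 30 beta-cell genes 1 separated the groups (3.33%), near the 2.29% of all genes in that direction. It was Isl1, a transcription factor shared by all islet endocrine cells. Isl1 measured 6.91, 7.09, 6.98 and 6.95 log2 CPM in HFD islets against 6.77, 6.81, 6.62 and 6.70 in RC islets.

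Genes of the other endocrine cells mostly had the higher HFD mean. Of 6 measured delta-cell genes all 6 had it, 2 of them without overlap, with a median log2 difference of 0.32, and of 12 alpha-cell genes 10 had it, 1 without overlap, with a median of 0.20. Of all genes 2.29% separated the groups in that direction. Without HFD replicate 4 the alpha-cell median was 0.30, and without HFD replicate 1 it was 0.13. Spock3 measured 3.45, 3.25, 3.18 and 3.36 log2 CPM in HFD islets, against 2.43, 2.80, 3.08 and 2.76 in RC islets, and Rbp4, retinol-binding protein, 7.76, 7.50, 7.58 and 7.43 against 7.35, 7.21, 7.34 and 7.35 in RC islets. Sst itself differed by 0.14 ± 0.15 (SE) and Gcg by 0.23 ± 0.18, with overlapping groups, so the abundant hormones of these cells did not separate the diets. Pdyn, prodynorphin, was split within the HFD group: it measured 6.68, 6.75, 8.81 and 9.05 log2 CPM in HFD islets and 6.37, 7.15, 6.80 and 7.32 in RC islets. Irx2, a transcription factor of alpha cells, differed by 0.34 ± 0.15.

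Pyy, the peptide YY hormone made in alpha and polypeptide cells of mouse islets, measured 10.72, 10.71, 10.65 and 10.89 log2 CPM in HFD islets and 10.58, 10.42, 10.19 and 9.37 in RC islets. The HFD mice lay close together above all RC mice, and RC replicate 4 was well below the rest. Its log2 difference was 0.61 ± 0.21 (SE). Ppy, pancreatic polypeptide, overlapped fully, with 11.53, 12.32, 11.68 and 12.15 in HFD islets and 12.31, 12.18, 11.98 and 10.71 in RC islets.

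Genes of fatty acid use had the higher HFD mean more often than not. Of 35 measured genes that burn fatty acids or answer to PPAR receptors, 25 had the higher HFD mean and 10 the lower, 3 separated the groups, beside 2.29% of all genes, and the median log2 difference was 0.10. Without RC replicate 4 the median was 0.03. The 3 were Pdk4, Etfa, which passes electrons from acyl-CoA dehydrogenases to the respiratory chain, and Cpt2, the inner carnitine palmitoyltransferase. Etfa measured 5.88, 5.81, 5.94 and 5.86 log2 CPM in HFD islets, against 5.58, 5.79, 5.78 and 5.56 in RC islets, and Cpt2 5.77, 5.86, 5.77 and 5.84 against 5.70, 5.75, 5.72 and 5.55 in RC islets. These are differences of 0.19 ± 0.08 and 0.13 ± 0.07 (SE). Cpt1a, the carnitine palmitoyltransferase that admits fatty acids to mitochondria, had a larger difference, 0.50 ± 0.22, but 1 RC mouse at the top of all: it measured 6.21, 6.46, 6.65 and 6.40 in HFD islets and 5.72, 6.09, 6.67 and 5.23 in RC islets.

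Cd36, a fatty acid transporter of beta cells, vessels and macrophages, measured 3.32, 3.49, 3.22 and 3.12 log2 CPM in HFD islets and 2.10, 1.97, 2.67 and 2.36 in RC islets. The groups did not overlap, and the log2 difference was 1.01 ± 0.38 (SE), beside 1.38 at day 5 and -0.26 at day 13. Cd36 was the only one of 20 genes of lipid uptake and droplets that separated the groups (5%, beside 2.29% of all genes in that direction). That list had a median of 0.02. Klf10 and Klf11, transcription factors listed among glucose-responsive genes, differed by 0.45 ± 0.15 and 0.59 ± 0.23, in a list of 12 with 6 higher and 6 lower HFD means and a median of 0.04. Txnip, which glucose induces strongly in islets, differed by 0.10 ± 0.17. Genes of glycolysis and lactate had the lower HFD mean in 16 of 16, but by little: their log2 differences lay between -0.26 and -0.004 with a median of -0.08. Pfkl alone separated the groups, 1 of 16 genes (6.25%), beside 1.73% of all genes in that direction. With libraries shifted to a common median, 13 had the lower HFD mean and 3 the higher.

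**Figure D2:**
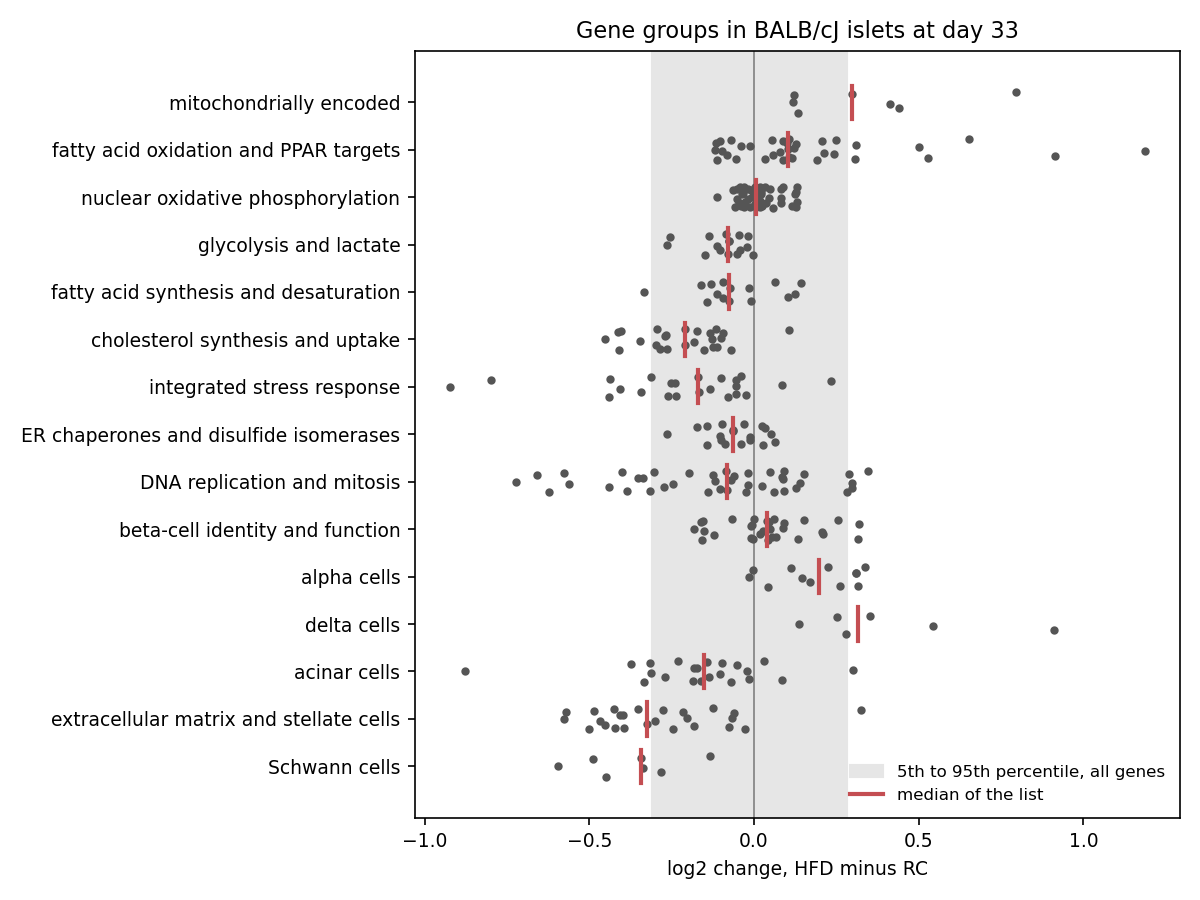
Log2 change between HFD and RC islets of each measured member of 15 gene groups at day 33 (grey points; red bars are medians of a group; the grey band runs from the 5th to the 95th percentile over all genes, -0.31 to 0.28). The cholesterol group lies mostly left of 0 with a median of -0.21 and the mitochondrial transcripts lie right of it with a median of 0.30, while the beta-cell, oxidative phosphorylation and ER chaperone groups are centred near 0.

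The cholesterol pathway had the lower HFD mean almost throughout. Islets, like other tissues, make cholesterol under the control of SREBP2, a transcription factor that is released from the ER when membrane sterol is low and binds sterol response elements in promoters. Of 25 measured genes of cholesterol synthesis and uptake, 24 had the lower HFD mean, and the only exception was Stard4, a sterol carrier, at 0.11 ± 0.13 (SE). The groups separated for 5 genes (20%, beside 1.73% of all genes in that direction), 7 had an unadjusted p below 0.05, 0 passed, and the median log2 difference was -0.21. Of 21 alternative fits, 5 leave the genes and their log2 changes as they are by construction. Among the other 16, the filter at a mean log2 CPM above 2 only drops genes. Over these 16 the median of this list lay between -0.26 and -0.15, and 23 to 25 genes had the lower HFD mean. At day 5 the list's median was -0.22, at day 13 it was 0.06, and at day 33 it was 0.02 in C57BL/6J and -0.09 in DBA/2J islets.

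Promoters are shown for 2 of the 5 genes that separated the groups, Hmgcs1, the synthase at the head of the pathway, and Insig1, which holds the SREBP complex in the ER and is itself a target of it. They were taken from RefSeq (GRCm38.p6), 250 bases before to 50 after the start of transcription, each on the plus strand, at chr13:119690101-119690400 for Hmgcs1 and chr5:28071162-28071461 for Insig1. Capitals mark the 8 letters CACCCCAC, a form of the sterol response element, in Hmgcs1 and the 6 letters CACGTG, an E-box that basic helix-loop-helix factors can bind, in Insig1, both searched on both strands.
Hmgcs1: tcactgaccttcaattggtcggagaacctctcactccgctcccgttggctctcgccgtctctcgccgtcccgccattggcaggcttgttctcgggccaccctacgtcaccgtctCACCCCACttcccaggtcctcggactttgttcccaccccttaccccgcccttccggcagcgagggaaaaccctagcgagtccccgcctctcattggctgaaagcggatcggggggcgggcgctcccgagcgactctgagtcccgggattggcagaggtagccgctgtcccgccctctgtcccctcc
Insig1: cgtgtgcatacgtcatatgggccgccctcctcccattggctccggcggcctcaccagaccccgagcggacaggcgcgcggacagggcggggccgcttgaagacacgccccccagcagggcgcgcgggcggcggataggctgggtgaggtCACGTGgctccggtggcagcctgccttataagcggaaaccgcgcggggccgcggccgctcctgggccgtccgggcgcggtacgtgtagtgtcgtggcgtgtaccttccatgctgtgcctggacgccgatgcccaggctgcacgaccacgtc
The 8 letters stand in 2.87% of the 32851 promoter windows of the mouse table and in 2 of the 17 windows found for the 25 cholesterol genes. The 6 letters stand in 7.15% of all windows and in 3 of those 17. The Insig1 window lacks the 8 letters, and the Hmgcs1 window lacks the 6 letters. The windows of the other genes that separated the groups, Mvd, Nsdhl and Tm7sf2, hold neither, so the promoters shown do not stand for all 5.

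Hmgcs1 measured 6.24, 6.36, 5.97 and 6.18 log2 CPM in HFD islets, against 6.44, 6.88, 6.71 and 6.51 in RC islets, a log2 difference of -0.45 ± 0.17 (SE, 95% interval -0.79 to -0.12). Insig1 measured 6.43, 6.82, 6.73 and 6.70 in HFD islets and 6.92, 6.85, 7.01 and 6.97 in RC islets, a difference of -0.27 ± 0.13, and the highest HFD mouse lay just under the lowest RC mouse. Tm7sf2, a sterol reductase, measured 2.89, 3.28, 3.41 and 3.40 in HFD islets and 3.52, 3.74, 3.63 and 3.72 in RC islets.

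Mvd, mevalonate diphosphate decarboxylase, and Nsdhl, a sterol dehydrogenase, completed the 5, with differences of -0.41 ± 0.19 and -0.21 ± 0.11. Fdft1, squalene synthase, and Msmo1, a sterol oxidase, differed by -0.29 ± 0.11 and -0.35 ± 0.13 with overlap of 1 or more mice. Fatty acid synthesis and desaturation, which is under related control, was centred nearer to 0, with a median of -0.08 over 15 genes and no gene that separated the groups.

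The transcripts of the mitochondrial genome had the higher HFD mean in 7 of 7 measured genes, with a median log2 difference of 0.30. They come from long shared precursors, so they are not 7 separate observations. mt-Nd1 measured 11.42, 11.55, 11.76 and 11.69 log2 CPM in HFD islets and 11.40, 11.13, 11.14 and 10.98 in RC islets, a difference of 0.44 ± 0.14 (SE), and the lowest HFD mouse was just above the highest RC mouse. mt-Nd2 measured 10.87, 10.84, 11.25 and 11.08 in HFD islets and 10.64, 10.51, 10.66 and 10.58 in RC islets. In all, 5 of the 7 separated the groups (71.4%, beside 2.29% of all genes in that direction), and the mean level of the list was 10.51, 10.61, 10.58 and 10.60 log2 CPM in HFD islets and 10.30, 10.29, 10.27 and 10.11 in RC islets. The differences of the members ranged from 0.12 ± 0.12 for mt-Co1 to 0.80 ± 0.39 for mt-Nd6, which is read from the opposite strand and averaged only 3.09 log2 CPM in HFD islets. The 7 had the higher HFD mean in each of the 16 other alternative fits, with medians of 0.24 to 0.36. Among these fits, the filter at a mean log2 CPM above 2 cannot move these changes. The 47 nuclear genes of oxidative phosphorylation had a median of 0.007. Medians of the mitochondrial list were 0.12 at day 5, -0.16 at day 13, -0.20 in C57BL/6J and 0.20 in DBA/2J islets at day 33. How poly(A) selection and RNA handling bore on these transcripts was not tested.

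**Figure D3:**
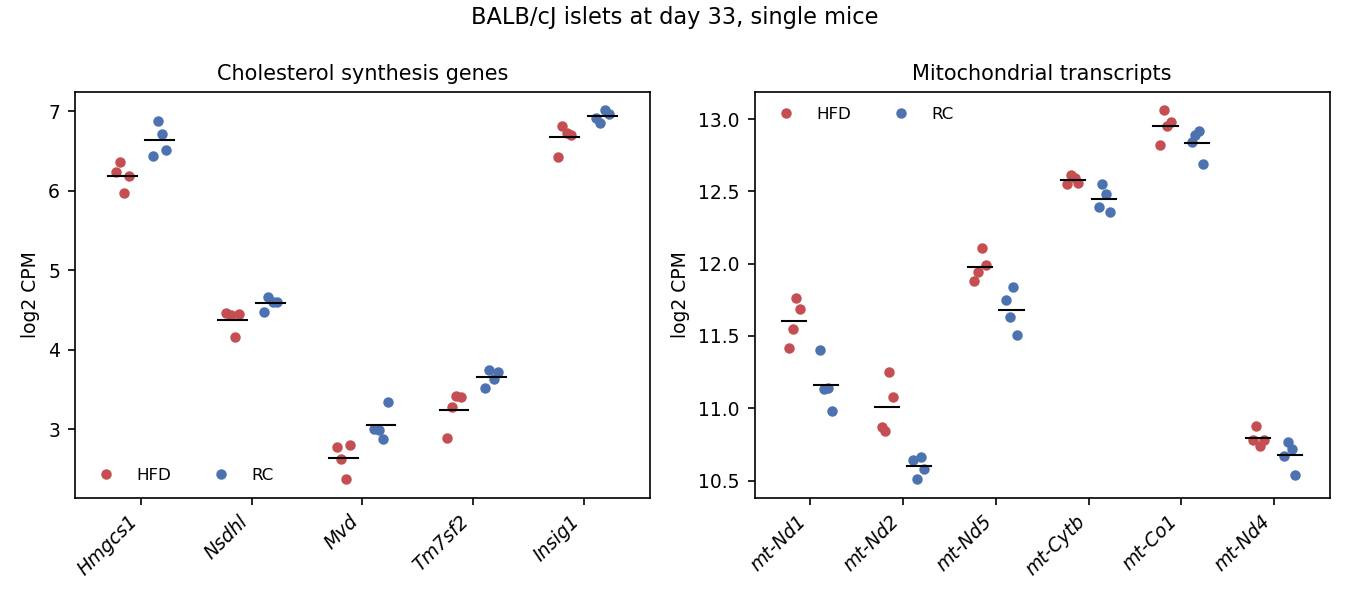
Cholesterol synthesis genes (left) and transcripts of the mitochondrial genome (right) in single BALB/cJ mice at day 33, in log2 CPM, with HFD left of RC for each gene; points are mice and black bars are group means. All 5 cholesterol genes have every HFD mouse below every RC mouse, and mt-Nd1, mt-Nd2, mt-Nd5 and mt-Cytb have every HFD mouse above, narrowly for mt-Nd1 and mt-Cytb, while mt-Co1 and mt-Nd4 overlap.

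Stress genes mostly had the lower HFD mean. The integrated stress response, in which phosphorylated eIF2-alpha favours translation of ATF4, had the lower HFD mean in 21 of 23 measured genes, with a median log2 difference of -0.17. Atf4 itself measured 7.92, 8.01, 7.95 and 8.00 log2 CPM in HFD islets, against 8.23, 8.60, 8.19 and 8.49 in RC islets, a difference of -0.41 ± 0.14 (SE) without overlap. Slc3a2, the heavy chain of amino acid transporters and an ATF4 target, separated the groups too, by -0.17 ± 0.09. These were 2 of the 23 genes (8.7%), beside 1.73% of all genes in that direction. Ddit3, Chac1 and Trib3, further targets, differed by -0.44 ± 0.20, -0.92 ± 0.42 and -0.80 ± 0.37, and for Chac1 and Trib3 RC replicate 1 lay among the HFD mice. The list's median was -0.10 at day 5, 0.40 at day 13, and -0.12 and -0.14 in C57BL/6J and DBA/2J islets at day 33. With library quality weights it was -0.11 at day 33, with 17 genes lower.

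Of 19 measured ER chaperones and disulfide isomerases, 14 had the lower HFD mean at day 33, with a median log2 difference of -0.06, beside -0.52 at day 5. In the list 9 genes passed at day 5, beside 0.315% of all genes, and 0 at day 33, as in every list. Leaving out 1 mouse moved the day 33 median between -0.15 and 0.05. Hspa5, the chaperone BiP, measured 11.18, 10.74, 11.07 and 11.27 log2 CPM in HFD islets and 11.20, 11.47, 10.76 and 11.52 in RC islets at day 33. The groups overlapped, and the difference was -0.17 ± 0.15 (SE).

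Cytosolic heat shock genes varied more. Dnajb1, a co-chaperone of HSP70, measured 4.97, 5.60, 4.89 and 4.73 log2 CPM in HFD islets and 5.72, 6.18, 5.69 and 6.12 in RC islets, a difference of -0.88 ± 0.34. Hspa8 differed by -0.49 ± 0.22 with overlap. Both genes belong to a list of 9 cold-inducible and stress genes, 6 with the lower and 3 with the higher HFD mean. The median of that list was -0.27, and Rbm3, a cold-inducible member, differed by 0.49 ± 0.25. Of 14 immediate early genes, which islets also induce during isolation, 12 had the lower HFD mean with a median of -0.39, and none separated the groups. Without RC replicate 2 the median was -0.12 with 8 lower, without HFD replicate 2 it was -0.26 and without RC replicate 4 it was -0.60. The mean level of that list was 2.91, 2.98, 4.27 and 3.02 log2 CPM in HFD islets and 3.37, 4.31, 4.01 and 2.96 in RC islets, with HFD replicate 3 well above the other HFD mice.

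Inflammatory genes showed mostly small differences. Nfkbia, the inhibitor of NF-kB and one of its targets, measured 4.85, 4.79, 5.31 and 5.17 log2 CPM in HFD islets and 4.68, 4.57, 4.71 and 4.22 in RC islets, a difference of 0.49 ± 0.23 (SE) without overlap. Relb and Tnfaip3 differed by 0.54 ± 0.27 and 0.49 ± 0.25, and the list of 10 had a median of 0.14, or 0.05 without HFD replicate 2. Among interferon-induced genes, Ifih1, a sensor of double-stranded RNA, separated the groups by 0.27 ± 0.13. It was 1 of 31 genes (3.23%), beside 2.29% of all genes in that direction. In that list 19 genes had the higher and 12 the lower HFD mean, with log2 differences from -1.04 to 0.27. Its median was 0.05, or -0.02 without RC replicate 4. Of the antioxidant genes under NRF2, Gsr, glutathione reductase, measured 5.76, 5.72, 5.74 and 5.68 in HFD islets and 5.58, 5.56, 5.49 and 5.66 in RC islets. Gsr alone separated the groups, 1 of 21 genes (4.76%), beside 2.29% of all genes in that direction. Of the 21, 11 had the higher and 10 the lower HFD mean, with a median of 0.03.

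Genes of DNA replication and mitosis had log2 differences in both directions at day 33. None of the 41 measured genes had an unadjusted p below 0.05, 26 had the lower HFD mean, and the median log2 difference was -0.08, beside -0.56 in BALB/cJ islets at day 5 and -0.54 and -0.46 in C57BL/6J and DBA/2J islets at day 33. Mki67, a marker of cycling cells, measured 2.88, 3.15, 4.63 and 3.61 log2 CPM in HFD islets and 3.75, 3.87, 3.45 and 4.18 in RC islets. HFD replicate 3 was the highest of all 8, and without it the list's median was -0.28, with 37 of 41 genes lower in HFD islets. Over the alternative fits the list's median lay between -0.28 and 0.02, so its sign depended on single mice.

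Circadian clock genes varied strongly between mice of the same diet. The clock is a loop in which ARNTL and CLOCK switch on their own repressors and the output factor DBP, and its genes peak at different hours. Nr1d1, a repressor of Arntl, measured 3.50, 3.27, 6.24 and 6.23 log2 CPM in HFD islets and 3.67, 4.64, 4.50 and 2.50 in RC islets. Dbp measured 3.96, 4.06, 6.04 and 5.97 in HFD islets and 4.25, 4.98, 5.29 and 3.57 in RC islets.

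Arntl ran the other way in part. It measured 3.92, 3.21, 2.82 and 2.94 log2 CPM in HFD islets and 3.90, 3.36, 2.76 and 4.84 in RC islets. HFD replicates 3 and 4 had the highest Nr1d1 and Dbp, and RC replicate 4 had the lowest of Dbp and Nr1d1 with the highest Arntl. The difference for Nr1d1 was 0.98 ± 0.39, where the SE uses the spread over all 69 libraries. Among these mice the spread was wider, with an SD of 1.65 in HFD and 0.98 in RC islets (n = 4 each). Of 19 clock genes, 10 had the higher and 9 the lower HFD mean, and the median was 0.03, or -0.12 without RC replicate 4 and 0.19 without RC replicate 3. The hour at which each mouse was killed is not given in the sources used here, and its part in these values was not tested.

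**Figure D4:**
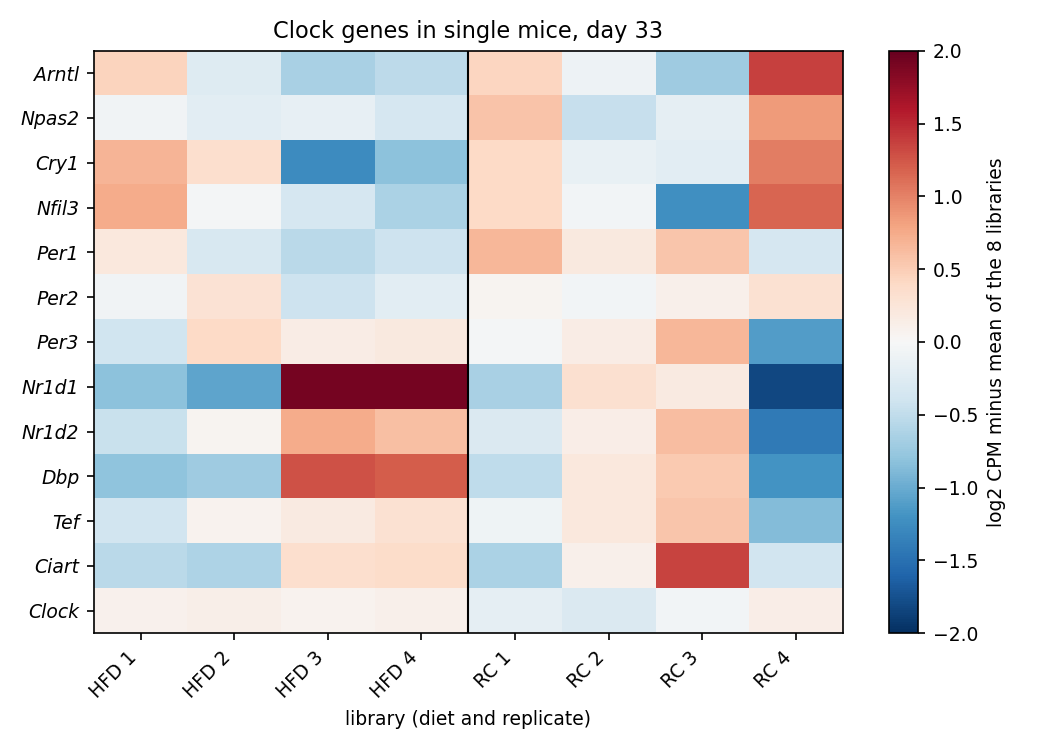
Clock genes in the 8 BALB/cJ libraries at day 33, as log2 CPM minus the mean of the gene over the 8 libraries (red higher, blue lower, colour scale from -2 to 2), with HFD replicates left of RC replicates. Nr1d1 and Dbp are highest in HFD replicates 3 and 4 and lowest in RC replicate 4, and Cry1 is lowest in HFD replicates 3 and 4 and highest in RC replicate 4.

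Differences between mice that did not follow diet took the first 2 principal components of the 8 libraries, with 30.5% and 19% of the variance. On the first, RC replicate 3 lay at one end at -28.3 and RC replicate 4 and HFD replicate 3 at the other at 26.2 and 24.7. Among its 10 leading genes were Nos1, Vip, Scn7a, Stmn2, Gdf10 and C4b, named after their values were seen. Vip, a peptide of nerve cells in the pancreas, measured 5.25, 5.31, 2.59 and 4.64 log2 CPM in HFD islets and 5.45, 4.41, 5.86 and 3.96 in RC islets. The second component was led by clock and immediate early genes. The third, with 14.4%, placed the HFD libraries at 9.5, 18.6, 13 and 1.7 and the RC libraries at -14.1, -18.6, -3.2 and -6.9.

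Markers of other cells varied widely between mice of the same diet. The mean level of 22 acinar genes, which mark digestive enzyme-producing cells, lay between 4.27 and 6.98 log2 CPM in HFD libraries and between 4.01 and 6.07 in RC libraries, with HFD replicate 3 highest. The 25 matrix and stellate genes had the lower HFD mean in 24 cases with a median log2 difference of -0.32 and no gene that separated the groups. The median was -0.15 without RC replicate 3, -0.53 without RC replicate 4 and -0.12 without the shallowest library of each diet. The mean level of the list ran from 4.12 to 4.52 in HFD and from 3.93 to 5.05 in RC libraries. All 7 Schwann cell genes had the lower HFD mean, with a median of -0.34 and mean levels of 0.49 to 1.51 and 0.76 to 2.24 log2 CPM in HFD and RC libraries. That median was -0.14 without HFD replicate 3, -0.16 without RC replicate 3, -0.21 without RC replicate 1 and -0.61 without RC replicate 4. The 12 endothelial genes had a median of -0.04. How far these cells bear on the gene differences above was not tested.

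Macrophage and lymphocyte genes held some of the widest differences. F13a1, coagulation factor XIII A, a gene of tissue macrophages, measured 3.08, 2.11, 2.81 and 2.75 log2 CPM in HFD islets, against 3.60, 4.30, 3.85 and 3.15 in RC islets, a difference of -1.04 ± 0.33 (SE) without overlap. Aif1, another macrophage gene, ran the other way at low level, with 0.93, 1.26, 0.35 and 0.42 in HFD islets and 0.25, 0.01, -0.32 and 0.04 in RC islets. The list of 14 macrophage genes had a median of -0.008, or 0.12 without RC replicate 3, and C1qa, of the complement genes made by islet macrophages, differed by 0.19 ± 0.17. Of 6 measured lymphocyte genes 5 had the higher HFD mean. Ighm, the immunoglobulin heavy chain of B cells, measured 2.82, 2.28, 4.53 and 3.07 in HFD islets and 1.43, 1.81, 1.56 and 2.78 in RC islets, with RC replicate 4 inside the HFD range. The mean level of the lymphocyte list was 1.66, 1.08, 3.01 and 1.51 in HFD libraries and 0.50, 0.59, 0.47 and 1.51 in RC libraries.

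The 4 measured Reg genes, which encode secreted lectins of acinar and stressed islet cells, all had the lower HFD mean at day 33. Reg2 measured -1.18, -2.03, -0.81 and -3.54 log2 CPM in HFD islets and -0.23, 0.42, 0.42 and 1.11 in RC islets, with 1 HFD library at the floor of the table. Reg1 measured 4.31, 2.52, 5.57 and 2.66 in HFD islets and 3.33, 4.77, 5.38 and 5.36 in RC islets, and in each diet the mouse lowest in Reg1 was, as in the acinar list, HFD replicate 2 and RC replicate 1.

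The 46 genes that passed at day 5 were also followed at day 33, in libraries of other mice. All 46 had a smaller difference at day 33 than at day 5. Of the 20 higher at day 5, 14 again had the higher HFD mean at day 33, with medians of 0.72 at day 5 and 0.12 at day 33, and of the 26 lower at day 5, 25 had the lower HFD mean, with medians of -0.55 and -0.10. Since the day 5 values chose these genes, the smaller day 33 differences are a description. The fit for the difference between days gave 0 adjusted calls among them and 39 at an unadjusted p below 0.05, beside 4.83% of all genes, and the day 5 values that chose the genes are part of that difference.

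Scd1, the stearoyl-CoA desaturase, differed by 1.69 ± 0.31 (SE) at day 5 and by -0.09 ± 0.31 at day 33, where it measured 3.30, 3.89, 3.70 and 3.66 log2 CPM in HFD islets and 4.04, 3.20, 4.06 and 3.62 in RC islets. The difference between the days was -1.78 ± 0.44, with an adjusted p of 0.564 by limma. Among the lower genes, the ER chaperones Hyou1, Pdia4 and Creld2 differed by -0.67, -0.66 and -1.09 at day 5 and by -0.14, -0.14 and -0.27 at day 33. Fabp4, a fatty acid-binding protein of adipocytes, endothelium and macrophages, differed by 1.24 at day 5 and 0.39 at day 33.

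An unadjusted p below 0.05 at day 33 was found for 4 of the 46, beside 4.58% of all genes, all in the direction of day 5. Anpep, an aminopeptidase, measured 6.52, 6.55, 6.71 and 6.32 log2 CPM in HFD islets and 6.23, 5.83, 6.60 and 5.83 in RC islets, a difference of 0.40 ± 0.13 (SE) beside 0.67 at day 5. Tcf7l2, a transcription factor of Wnt signalling, differed by 0.27 ± 0.12 beside 0.57 at day 5. Rsad1 and Net1 differed by 0.29 at day 33, beside 0.44 and 0.62 at day 5.

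**Figure D5:**
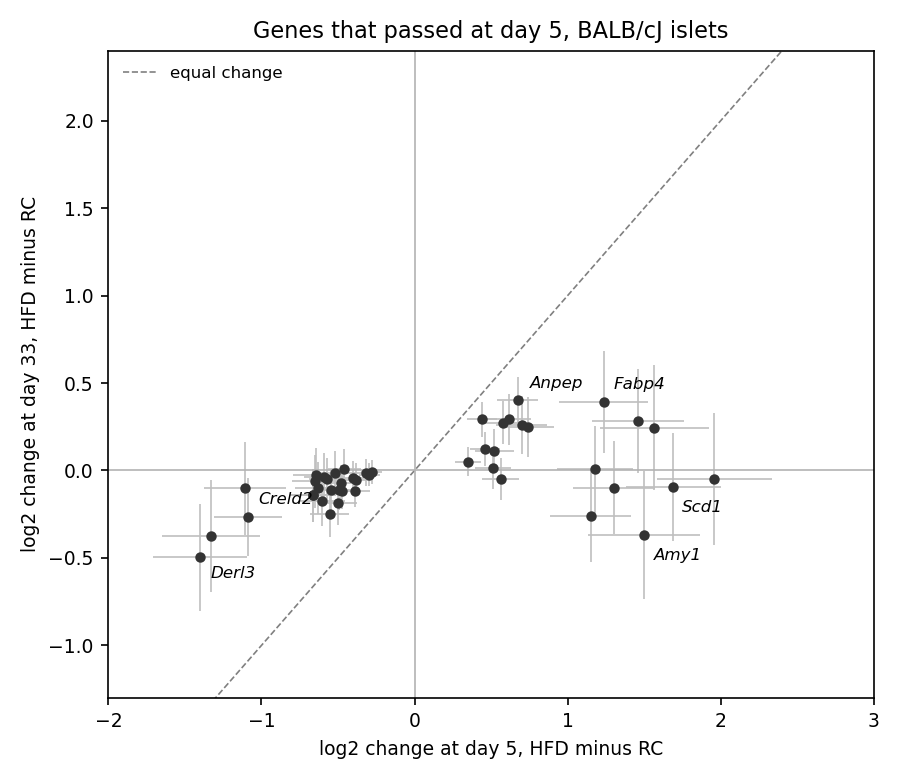
Log2 change between HFD and RC at day 33 (vertical axis) against that at day 5 (horizontal axis) for the 46 genes that passed at day 5 in BALB/cJ islets; bars are standard errors and the dashed line marks equal change. All points lie nearer to 0 at day 33, with Scd1 at 1.69 at day 5 and -0.09 at day 33 and Derl3 at -1.40 and -0.50.

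Beside the other groups, genes with low p for a difference in diet effect included the following. Atp8a1 differed by 0.53 at day 33 and by -0.28 at day 5, and Acad12, an acyl-CoA dehydrogenase family member, by -0.34 and 0.31. Between days 33 and 13, Rasa2, a Ras GTPase-activating protein, differed by 0.33 and -0.28, and Xlr3a by 1.29 and -0.58. Between strains at day 33, Mrps27, a mitochondrial ribosomal protein, differed by -0.14 in BALB/cJ and 0.45 in C57BL/6J islets, and Dck, deoxycytidine kinase, by 0.16 and -0.45. Gucy2c differed by -0.78 in BALB/cJ and 0.44 in DBA/2J islets. None of these differences of effects passed, with adjusted p of 0.23 to 1 by limma.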

How the data were processed

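Islet libraries were stranded, poly(A)-selected (TruSeq) and read from a single end on a HiSeq instrument, per the labels' protocols. Alignment and counting tools are listed in the submitters' processing notes as STAR 2.5.3a and HTSeq 0.9.1, beside edgeR and the build GRCm38. The authors deposited log2 CPM, normalized between libraries, for 14604 genes and 69 libraries in 18 groups. In every library 100% of the values of up to 1000 reads corresponded to whole reads within 0.05 reads, and these reads were used for limma-voom. Replicates, each from 1 mouse, differed by more than counting error (chi-square per degree of freedom 9.67 to 34.8).

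Each group was given its own mean in limma 3.58.1 (R 4.3.3; lmFit, then eBayes with trend), and all 69 libraries shared the estimate of the spread. Contrasts were HFD minus RC and differences of such effects, two-sided, adjusted by Benjamini-Hochberg within a contrast, with a threshold of 0.05. A minimum of log2 CPM above 0 in 4 libraries removed 0 genes. The code was tested on simulated data. Means carry the SD over 4 mice, and log2 changes carry the SE of the fit, which uses the spread over all 69 libraries.

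Named genes exclude predicted genes, pseudogenes and the lowest 25% by level. They are the 12 of lowest p in each direction, up to 4 per list, fixed hormones and markers, and 6 per difference of effects; others were named after their values were seen. Some genes that the rule picks are not reported here. The 36 gene lists and the comparison were chosen with earlier results of these data known, and lists are described without a test. Alternatives were other sets of libraries, level filters, scalings, voom, quality weights, no trend, a replicate block, leaving out each library and, added after seeing the data, leaving out the shallowest library of each diet. The series text lists the days as 5, 13 and 13, but sample labels say 5, 13 and 33 and were followed. The spelling C56BL/6J in the labels was taken to mean C57BL/6J. Gene positions are from GENCODE mouse release 21 and promoters from RefSeq.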

Additional observations from a re-analysis of the deposited data

Results flagged for a closer look

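In each diet group of 4 mice, the gap between the highest or lowest mouse and its nearest neighbour was set against the range of the group, for the genes and list levels reported. A gap above Dixon's 95% critical ratio was found in 11 groups (3.96% of those examined), and chance gives about 1 in 20. HFD replicate 3 had Nos1 at 1.98 log2 CPM, against 3.21 to 3.40 in the other HFD mice, Nsdhl at 4.16 against 4.43 to 4.46, and a mean level of immediate early genes of 4.27 against 2.91 to 3.02. HFD replicate 1 had Asb11 at 1.88, against 0.73 to 0.81, and a mean level of NF-kB targets of 3.47 against 3.61 to 3.63. HFD replicate 2 had a mean level of endothelial genes of 5.52, against 5.63 to 5.65. RC replicate 4 had a mean level of the mitochondrial transcripts of 10.11, against 10.27 to 10.30 in the other RC mice, and of lymphocyte genes of 1.51 against 0.47 to 0.59. In RC replicate 3 Dgkb was at 1.24, against 1.84 to 1.93, in RC replicate 2 Rbp4 was at 7.21, against 7.34 to 7.35, and in RC replicate 1 Dck was at 3.19, against 3.36 to 3.37.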

How the results depend on the processing

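The count of 0 genes between HFD and RC islets held in 18 of 21 alternative fits, with 507 to 988 genes at an unadjusted p below 0.05. Of the 21, 5 leave the genes and their log2 changes as they are, and the filter at a mean log2 CPM above 2 only drops genes. The fit without a level filter, among those 5, repeats the main fit in full, since the main filter removed 0 genes. Leaving out 1 library gave 0 to 2 genes. Library quality weights gave 9 genes. In the differences of diet effects they gave 10 genes for day 33 against day 13, 3285 for BALB/cJ against C57BL/6J and 2 against DBA/2J. Leaving out 1 library gave 0 to 3 genes for day 33 against day 5 and 0 to 1 against C57BL/6J, the calls coming without RC replicate 4. The cause was not tested. Title numbers were shared by 3 pairs of HFD and RC mice, whose deviations from their group means correlated at -0.13, 0.17 and 0.23. Pairs of different number ran from -0.25 to 0.15, and 3 pairs are too few to decide whether the numbers pair mice. A fit with the replicate block gave 0 genes and 521 at an unadjusted p below 0.05. Of 2161 pairs of a named gene and an alternative, 2137 kept direction and call, 8 passed and 16 changed sign, in 6 genes. Leaving out 1 library at a time moved the log2 difference of Pdx1 between -0.024 and 0.078, of Nkx6-1 between -0.019 and 0.109, of Ppy between -0.237 and 0.300, of Stard4 between -0.026 and 0.193, of Vip between -0.793 and 0.148 and of Scd1 between -0.271 and 0.021. Other settings that turned a sign gave -0.009 for Pdx1 (quantile normalization), -0.038 for Ppy (quality weights) and 0.003 for Scd1 (replicate block). Genes of low level had the widest intervals.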
